A study of Mus musculus with 6 samples.

Results

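The AP-2 factor genes, Tfap2a, Tfap2b, Tfap2c, Tfap2d and Tfap2e, were followed through H3K4me1 peak lists from the embryonic mouse whisker pad. They are 5 of the 21755 protein-coding genes of the autosomes and chromosome X, and were taken by name from the GENCODE annotation of GRCm38, the assembly also called mm10. For each gene, the locus was made of every peak overlapping the gene body or the 5 kb on either side, and of every peak up to 300 kb from a start site of that gene when no other protein-coding start site lay nearer. The loci held 48 of the 43755 peaks of the 3 lists.

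H3K4me1, a single methyl group on lysine 4 of histone H3, is found around enhancers, both active and poised. AP-2 proteins bind DNA as dimers at GC-rich palindromes through a basic helix-span-helix domain. In the embryo they act in the surface ectoderm and in the neural crest, the migratory cells that give rise to most of the mesenchyme of the face. Tfap2a is required for closure and outgrowth of the face, Tfap2b acts beside it in the crest and is also active in kidney tubules, and Tfap2c is known from ectoderm, placenta and germ cells. Tfap2d and Tfap2e are known mainly from neurons, Tfap2d of the midbrain and Tfap2e of the olfactory system.

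The samples were wild-type whisker pads at E12 (embryonic day 12) of strain B6/J2, with all cells of the pad dissociated together, processed by CUT&Tag, in which an antibody-tethered transposase releases fragments at the mark. Of 6 samples, 3 were made with an antibody against H3K4me1, numbered here as replicates 1, 2 and 3 by the whisker pad that the title names, and the 3 made with IgG were not analysed here. It is not given in the sources used here whether the pads came from separate embryos. In such a mixture, fewer cells with the mark and less mark per cell cannot be told apart.

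The titles of all samples give whisker pad, but 4 samples carry adult kidney as source name, and H3K4me1 replicates 2 and 3 are 2 of these. Markers were therefore looked up before the AP-2 genes, as genes with a peak over the body or the 5 kb on either side, which 24.9% of all protein-coding genes had in replicate 1, 22.6% in replicate 2 and 19.6% in replicate 3. Of 10 facial mesenchyme genes, 10, 10 and 8 had a peak in replicates 1, 2 and 3, and 8 had one in all 3. Of 10 adult kidney genes, 4, 4 and 2 had a peak, and 2 had one in all 3, or 20%, beside 15.5% of all genes. These were Cubn, at percentiles of total signal of 59.8, 54.0 and 66.5, and Slc12a1, at 56.99, 9.27 and 22.0, while 6 of the 10, among them Umod, Nphs1 and Lrp2, had no peak in any replicate. Of 8 surface ectoderm genes, 5, 5 and 3 had a peak, and of 6 endothelial genes 3, 1 and 2. The titles were used, and most peak counts, percentiles and covered bases are given for replicate 1 by itself as well. Measures that join replicates are not given for it alone. The lists held 16788, 12969 and 13998 peaks in replicates 1, 2 and 3. Signal is the fragment pileup as deposited, not scaled to depth, so peaks were compared by their percentile of total signal within their own list. The study names a single nominal read depth for every sample, but read numbers are not part of the lists, so actual depth per library was not analysed here and no counting interval is given.

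Windows of 300 bases around the highest pileup are shown for 4 regions, where a region is the merger of peaks that overlap between replicates. The first is the strongest Tfap2a region, at chr13:40717215-40717514 across the last intron and exon of the gene. The Tfap2b window, chr1:19233675-19233974, lies in intron 6 within the strongest Tfap2b region and is centred on the maximum of replicate 3. Replicate 2 had no peak over this window, and the maximum of replicate 1 lay outside it, in exon 7. The Tfap2c region 1 window, chr2:172547185-172547484, lies upstream of the gene in the region over its start. The Tfap2c region 9 window, chr2:172739549-172739848, lies far downstream and was singled out after its values were seen. All are from GRCm38, plus strand, and capitals mark the bases of highest pileup of any replicate that fall in the window.
Tfap2a region 1: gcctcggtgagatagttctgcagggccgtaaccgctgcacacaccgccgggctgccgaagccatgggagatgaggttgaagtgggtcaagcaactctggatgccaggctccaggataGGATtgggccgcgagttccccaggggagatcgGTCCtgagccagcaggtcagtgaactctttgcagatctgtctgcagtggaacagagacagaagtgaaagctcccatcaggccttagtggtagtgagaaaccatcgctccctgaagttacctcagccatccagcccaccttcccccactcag
Tfap2b region 3: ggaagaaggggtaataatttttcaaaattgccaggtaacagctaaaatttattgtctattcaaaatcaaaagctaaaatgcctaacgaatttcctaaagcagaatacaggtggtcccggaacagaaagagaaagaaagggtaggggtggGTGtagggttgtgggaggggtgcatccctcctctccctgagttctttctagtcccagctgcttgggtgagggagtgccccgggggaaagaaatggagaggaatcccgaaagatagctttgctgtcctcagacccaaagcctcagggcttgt
Tfap2c region 1: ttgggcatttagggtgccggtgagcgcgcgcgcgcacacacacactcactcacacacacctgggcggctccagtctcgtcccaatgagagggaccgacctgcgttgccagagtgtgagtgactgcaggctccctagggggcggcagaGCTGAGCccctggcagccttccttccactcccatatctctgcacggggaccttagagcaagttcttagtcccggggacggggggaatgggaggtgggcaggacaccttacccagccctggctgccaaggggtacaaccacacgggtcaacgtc
Tfap2c region 9: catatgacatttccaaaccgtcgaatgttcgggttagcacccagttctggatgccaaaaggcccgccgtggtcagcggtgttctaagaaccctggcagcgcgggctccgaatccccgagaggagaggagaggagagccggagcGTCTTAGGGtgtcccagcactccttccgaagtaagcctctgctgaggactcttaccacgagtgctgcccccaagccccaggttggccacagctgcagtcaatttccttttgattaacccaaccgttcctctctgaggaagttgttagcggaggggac

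The 250 bases before a RefSeq start are shown for 3 genes that differed in whether peaks reached their starts. They are chr13:40734921-40735170 on the minus strand for an internal Tfap2a start, chr1:19211804-19212053 on the plus strand for the start of Tfap2b nearest to its peaks, and chr1:19102772-19103021 on the plus strand for Tfap2d, all of GRCm38.p6. The Tfap2a promoter was under a peak in replicates 1 and 2, and those of Tfap2b and Tfap2d in no replicate. Of the 5 genes, 4 had an entry in the RefSeq promoter table, and Tfap2c was not matched.
Tfap2a promoter: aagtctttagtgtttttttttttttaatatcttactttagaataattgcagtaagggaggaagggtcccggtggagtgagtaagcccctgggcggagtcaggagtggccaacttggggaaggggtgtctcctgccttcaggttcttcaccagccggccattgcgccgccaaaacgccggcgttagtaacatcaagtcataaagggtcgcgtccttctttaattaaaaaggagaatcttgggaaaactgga
Tfap2b promoter: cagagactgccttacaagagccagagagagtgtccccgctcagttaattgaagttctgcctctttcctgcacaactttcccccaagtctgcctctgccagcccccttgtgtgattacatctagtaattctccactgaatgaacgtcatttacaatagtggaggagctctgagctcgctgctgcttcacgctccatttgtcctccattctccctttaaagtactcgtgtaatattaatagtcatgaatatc
Tfap2d promoter: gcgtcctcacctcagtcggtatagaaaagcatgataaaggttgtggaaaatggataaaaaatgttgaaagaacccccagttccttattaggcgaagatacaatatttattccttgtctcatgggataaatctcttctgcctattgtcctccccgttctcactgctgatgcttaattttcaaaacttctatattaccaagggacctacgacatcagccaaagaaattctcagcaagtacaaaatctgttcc

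The AP-2 palindrome GCCNNNGGC, searched on both strands, was found in the window of 1 of the 11 AP-2 regions present in all replicates. This was Tfap2c region 1, where GCCCCTGGC begins inside the stretch shown in capitals, the highest pileup of replicate 2 alone. The strongest peaks of replicates 1 and 3 in this region had their maxima outside the window, 0.169 kb before and 3.92 kb after the 5′ start. No replicate 3 peak lay over the window. Of all 8916 regions in all replicates, 11.8% held the palindrome in the window of the same length. The TCF/LEF motif CTTTGAT was in 0 of 11 windows, beside 4.09% of all regions, and a paired homeodomain motif in 0 of 11, beside 0.336%. In the 7 AP-2 promoter entries the palindrome was found 0 times, beside 13.7% of 32851 promoters. Over whole regions the AP-2 regions held a median of 0.490 palindromes per kb, and all regions a median of 0.264. The palindrome is GC-rich, and these densities were not matched for GC content. The AP-2 regions had 44.4 to 54.6% GC, beside a median of 47.3% over all regions. None of these motifs contains another, and a match describes the letters only.

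H3K4me1 peaks lay at Tfap2a, Tfap2b and Tfap2c in every replicate and over their gene bodies, at Tfap2e only outside the gene, and at Tfap2d nowhere. Tfap2c had 10, 6 and 7 locus peaks in replicates 1, 2 and 3, or 7.67 ± 2.08 on average (SD, n = 3). Tfap2a had 5, 2 and 6, a mean of 4.33 ± 2.08 (SD, n = 3), and the replicates differ here mainly in how one wide domain was divided. Tfap2b had 3 in each replicate, Tfap2e 1 in each and Tfap2d 0 in each. Thus 3 of 5 genes had a peak over the body or its flanks in all 3 replicates, beside 15.5% of all protein-coding genes, and the same 3 in any replicate, beside 28.8%. A locus peak was present at 4 of 5 genes in all 3 replicates, beside 19.8% of all genes. These 4 had one in each single replicate, beside 30% of all genes in replicate 1, 27.1% in replicate 2 and 24.6% in replicate 3.

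**Figure D1:**
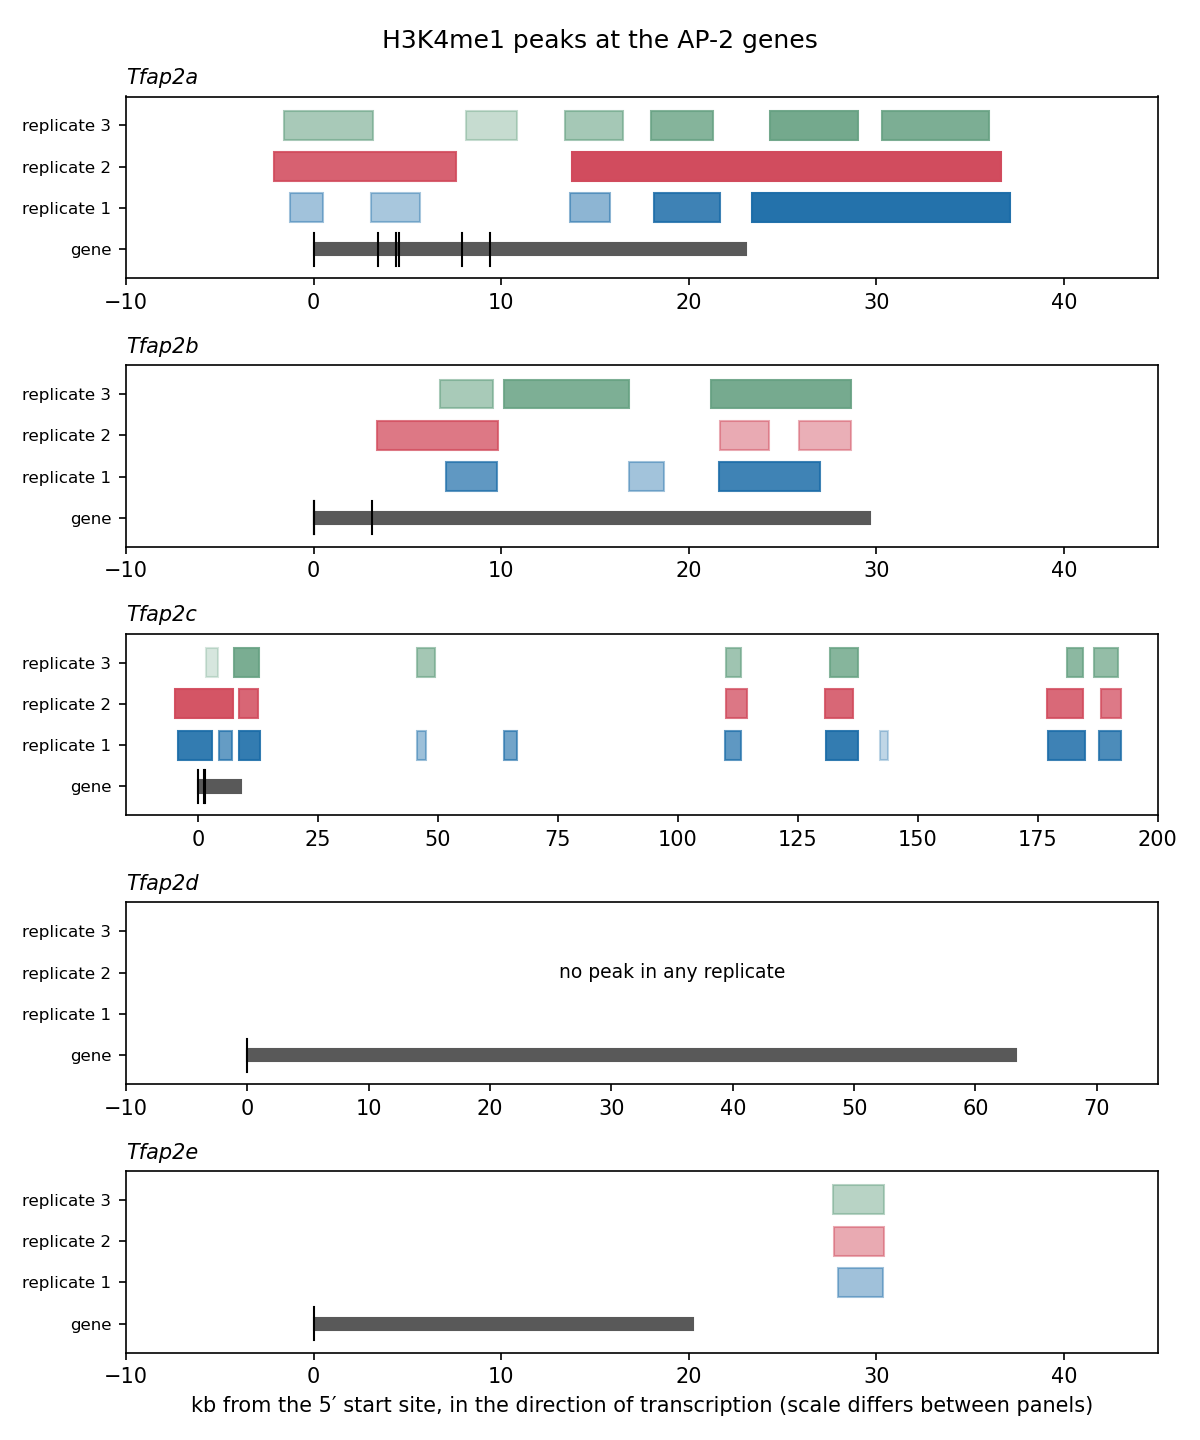
Positions of the locus peaks of each AP-2 gene in kb from its 5′ start, read in the direction of transcription, with one row per replicate. The gene body is the grey bar with its annotated start sites as ticks, and darker peaks have a higher percentile of total signal. Tfap2c peaks extend to 192 kb downstream, and no row of Tfap2d holds a peak.

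Merging overlapping peaks between replicates gave 16 AP-2 regions, of which 11 were present in all 3 replicates, 2 in 2 replicates and 3 in 1 replicate. Of all 19251 regions, 46.3% were present in all 3. Of the 16 AP-2 regions, 8 lay over a gene body or its flanks and the other 8 were distal. The distal regions were 7 of Tfap2c and 1 of Tfap2e.

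Tfap2a (ENSMUSG00000021359.16) lies at chr13:40715302-40738376 on the minus strand, with 6 annotated start sites and 7 exons in its longest-reaching transcript. Its main feature was a domain of 23.8 kb at chr13:40701232-40724992, which began in intron 3, ran over exons 4 to 7 and the 3′ end and continued past the gene over the noncoding gene Gm9979. Of the 8916 regions in all replicates, 0.785% were at least as long, and their median was 5.0025 kb. Replicate 2 held the domain as 1 peak of 22.9 kb at percentile 97.8. In replicate 1 it was 3 peaks, the strongest at percentile 94.8, and in replicate 3 it was 4 peaks, the strongest at 87.9. The mean over replicates was 93.5 ± 5.11 (SD, n = 3), and 8.42% of all regions had a mean at least as high. The bases covered in all 3 replicates made up 65.5% of the domain, close to the median of 64.7% over all regions. Among the AP-2 regions in all replicates this share ran from 9.70% in the region over the Tfap2c start to 88.8% in the Tfap2e region. In the region over the Tfap2a start it was 19.5%.

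Within this domain the replicates had their maxima in different places. In replicate 2 the highest pileup was in exon 7, 21.0 kb after the 5′ start. The second-strongest peak of replicate 1, at percentile 79.4, had its maximum 21.0 kb after the start as well, also in exon 7. The strongest peaks of replicates 1 and 3 had theirs 28.6 and 28.7 kb after the start, past the end of the gene. In replicate 3 the peak at percentile 72.8 over the 3′ part of the gene had its maximum 19.8 kb after the start, in intron 6. The domain thus held at least 2 places of high pileup. One was in the last exon, in replicates 1 and 2, and one 6.84 to 6.89 kb past the gene, in replicates 1 and 3.

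The other Tfap2a region in all replicates, chr13:40730792-40740457, was 9.67 kb long and lay over the 5′ start. Its strongest peak stood at percentile 21.7 in replicate 1, 82.2 in replicate 2 and 42.7 in replicate 3, which averages 48.9 ± 30.7 (SD, n = 3), so it was strong in replicate 2 alone. The 5′ start site itself was under a peak in all 3 replicates. Of the AP-2 genes this held for Tfap2a alone, or 1 of 5, beside 1.8% of all genes, and 2 of 5, Tfap2a and Tfap2c, had a 5′ start under a peak in any replicate, beside 8.07%. The region also covered 3 internal start sites, which were under peaks in replicates 1 and 2 and lay 0.265 to 1.36 kb from the nearest peak in replicate 3. The antisense genes Gm26688 and Gm47067 overlap this region, as Gm47061 does the 3′ domain, and a histone mark cannot be assigned to a strand. Between the start and the 3′ domain a peak over exon 2 was called in replicate 3 alone, at percentile 16.4. A stretch of 2.54 kb at chr13:40724993-40727531 was under no peak in any replicate. Without replicate 2, whose wide peaks join others, 4 Tfap2a regions rather than 2 were present in all remaining replicates.

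Tfap2b (ENSMUSG00000025927.13) lies at chr1:19208914-19238576 on the plus strand and has 3 annotated start sites and 7 exons. Its peaks were all inside the gene, in replicate 1 with the whisker pad source name as in the others, and none covered a start site in any replicate. The nearest peak began 7.07, 3.37 and 6.77 kb after the 5′ start in replicates 1, 2 and 3. From the internal start at 19212054, whose promoter is printed above, the nearest peak was 3.93, 0.226 and 3.63 kb away. Over 5′ starts of all genes, 5.31, 6.5 and 2.42% were under a peak in replicates 1, 2 and 3.

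The strongest Tfap2b region, chr1:19230087-19237575, lay over exon 6, intron 6 and most of exon 7. It stood at percentile 79.1 in replicate 1, 28.2 in replicate 2 and 86.4 in replicate 3, which averages 64.6 ± 31.7 (SD, n = 3). Replicate 2 held the region as 2 peaks, at percentiles 28.2 and 25.1, where the others held 1. Its share of list signal there was 64.9 ppm, close to 69.7 in replicate 1, and 115 in replicate 3. The region with its maxima in intron 2, chr1:19212280-19218727, varied less, at percentiles 59.6, 65.3 and 42.0. Only the longer peak of replicate 2 also reached over exon 2 into intron 1. A region over exons 3 and 4 with its maxima in intron 3, chr1:19219065-19227622, was found in replicate 1 at percentile 21.0 and in replicate 3 at 79.7, but not in replicate 2. It joins peaks that met only at their ends, chr1:19225720-19227622 in replicate 1 and chr1:19219065-19225728 in replicate 3. Their maxima lay 17.3 and 14.5 kb after the 5′ start. Of the Tfap2b body, 20.9% was under a peak in all 3 replicates and 24.2% in none.

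Tfap2c (ENSMUSG00000028640.11), at chr2:172549593-172558622 on the plus strand, is the shortest of the genes with 9.03 kb, and had the most peaks. Of its 9 regions, 6 were present in all replicates. The region over the start, chr2:172544745-172556996, stood at percentile 85.8 in replicate 1, 91.8 in replicate 2 and 1.55 in replicate 3. Replicate 3 was far below the others here, with a peak that began 1.67 kb after the 5′ start and covered none of the 3 annotated start sites. All 3 start sites were under peaks in replicates 1 and 2. The mean over replicates was 59.7 ± 50.5 (SD, n = 3).

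The region over the last part of Tfap2c and beyond its 3′ end, chr2:172557063-172562610, was the strongest by mean percentile and varied little. Its percentiles were 85.8, 78.9 and 82.9, a mean of 82.5 ± 3.43 (SD, n = 3). Its share of list signal was 92.7, 92.6 and 101 ppm in replicates 1, 2 and 3, so the replicates were level there while they differed at the start of the same gene. By mean percentile among regions present in all replicates, the strongest region of Tfap2a, Tfap2b and Tfap2c was in each case at the 3′ part of the gene. This did not hold in every replicate. In replicate 2 the intron 2 region of Tfap2b and the region over the start of Tfap2c had the higher percentile. For Tfap2b this rested on the strongest single peak, since replicate 2 held the 3′ region as 2 peaks. By share of list signal in replicate 2, the Tfap2b 3′ region held 64.9 ppm and the intron 2 region 62.5. In replicate 1 the distal Tfap2c region 6 led at 85.9, and the start and 3′ regions of Tfap2c were level at 85.8. By share of list signal the region over the Tfap2c start held 131, 169 and 26.4 ppm in replicates 1, 2 and 3. This was more than the 3′ region held in replicates 1 and 2, and less in replicate 3.

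Downstream of Tfap2c, 7 regions lay from 45.6 to 192 kb after the 5′ start, in an interval of 309 kb without another protein-coding gene before Bmp7, a ligand of the BMP pathway. Region 5, at chr2:172659490-172664118, had percentiles of 60.1, 65.9 and 49.8, a mean of 58.6 ± 8.14 (SD, n = 3). Region 6, at chr2:172680190-172687088, was the strongest of the distal ones with 85.9, 78.1 and 71.6, a mean of 78.5 ± 7.15 (SD, n = 3). Region 8, at chr2:172726550-172734391, had 79.8, 76.4 and 66.9. In each of these the value of replicate 3 was the lowest. Region 9, at chr2:172736443-172741968, had 71.3, 64.4 and 59.8, a mean of 65.2 ± 5.75 (SD, n = 3). Its highest pileup fell on overlapping bases in all replicates, with a spread of 0.003 kb, beside a median spread of 0.5305 kb over all regions. It is the stretch in capitals in the Tfap2c region 9 sequence. The other 3 distal regions were weaker and were found in 1 or 2 replicates, with percentiles between 3.58 and 49.1.

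Tfap2d (ENSMUSG00000042596.7) is the neighbour of Tfap2b, at chr1:19103022-19166346 on the plus strand, with a gap of 42.6 kb between them. Over its 63.3 kb and 5 kb flanks 0 peaks were called in each of the 3 lists. The nearest peaks were those of Tfap2b, 49.6, 45.9 and 49.3 kb past its end in replicates 1, 2 and 3. On the other side the nearest peak was 2495, 2833 and 1371 kb away. All of Tfap2d was thus under no peak, which in lists of the top 1% of signal blocks does not show that the mark is absent. A gene without a locus peak was common, since 34.3% of all genes had one in any replicate.

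Tfap2e (ENSMUSG00000042477.7), at chr4:126716006-126736240 on the minus strand, had no peak over its body or flanks. Its 1 locus peak in each replicate, in the region chr4:126705810-126708562, stood at percentiles 22.2, 28.9 and 28.1, a mean of 26.4 ± 3.63 (SD, n = 3). This region lies inside the neighbouring gene Psmb2, which encodes a proteasome subunit, over its exons 4 and 5 and with the maxima of replicates 1 and 3 in its intron 4. Its edge was 27.9, 27.7 and 27.7 kb from the Tfap2e start and 28.2, 28.2 and 28.2 kb from the nearest Psmb2 start, so the assignment rested on less than 1 kb. When distance was taken from the highest pileup, Tfap2e had 0 locus peaks.

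The genes were ordered by the bases under locus peaks. Tfap2c had 42.4, 38.4 and 28.6 kb in replicates 1, 2 and 3, which averages 36.5 ± 7.14 kb (SD, n = 3). Tfap2a had 23.8, 32.5 and 24.3 kb, a mean of 26.9 ± 4.90 kb (SD, n = 3). Tfap2b followed with 9.998, 11.8 and 16.9 kb, a mean of 12.9 ± 3.60 kb (SD, n = 3). Tfap2e had 2.44, 2.70 and 2.72 kb and Tfap2d 0 kb. This order was the same in each replicate, although the value of Tfap2c in replicate 3 was below that of Tfap2a in replicate 2. The difference between the neighbours Tfap2a and Tfap2c was -9.60 ± 7.86 kb (SD, n = 3), from -18.6 to -4.26 kb. An exact two-sided sign-flip permutation test over replicates gave p = 0.25 for each of the 10 pairs of genes, adjusted p = 0.25, which is the smallest that 3 replicates allow.

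**Figure D2:**
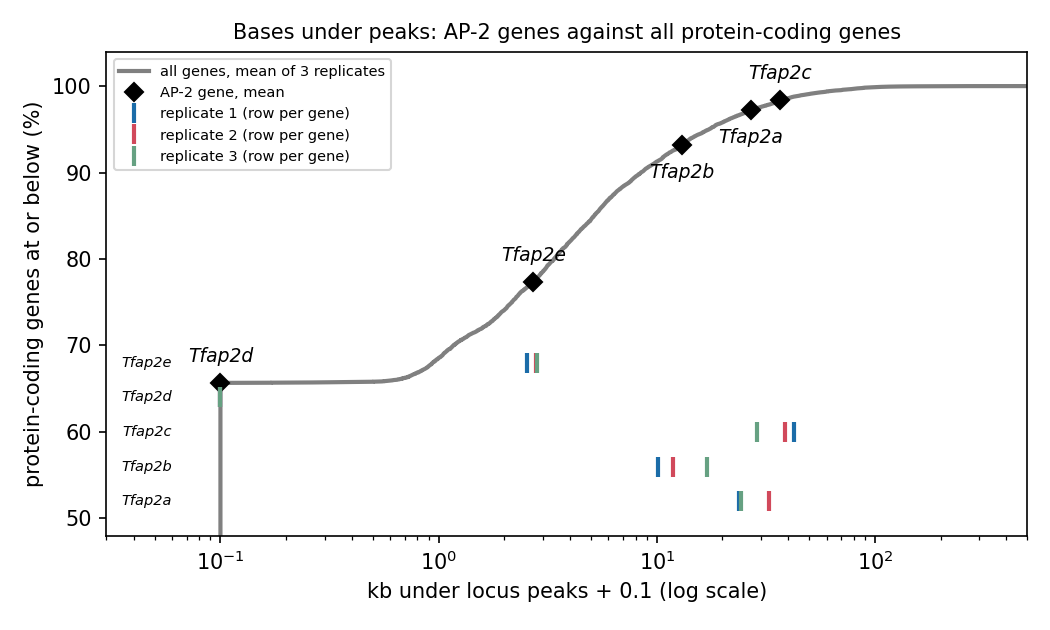
Kilobases under locus peaks on a log scale, after adding 0.1, against the percentage of protein-coding genes with that much or less; the curve shows all 21755 genes and diamonds the means of the AP-2 genes. Ticks in the lower rows give the replicates of each gene, with Tfap2c at 28.6 to 42.4 kb, Tfap2a at 23.8 to 32.5 kb and Tfap2d at 0.

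Against all genes, the median of which was 0 kb in every replicate, Tfap2a, Tfap2b and Tfap2c stood high. More bases than at Tfap2c were covered at 1.37, 1.56 and 2.44% of genes in replicates 1, 2 and 3. For Tfap2a these shares were 3.54, 2.17 and 3.14%, and for Tfap2b 9.22, 7.85 and 4.82%. Tfap2e was passed by 25.6, 24.5 and 20.9% of genes. When only peaks over the body and its flanks were counted, Tfap2c fell behind Tfap2a, with 14.1, 16.2 and 7.82 kb beside 23.8, 32.5 and 18.6 kb. The lead of Tfap2c over Tfap2a in kb was thus made of distal peaks. As a share of the body and its flanks, Tfap2c was covered more in replicates 1 and 2, at 74.0 and 85.3% beside 44.6 and 72.4%. In replicate 3 it was covered less, at 41.1% beside 53.2%.

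In share of all peak signal the order of the strongest genes was less separate. The Tfap2c locus held 558, 560 and 411 ppm of the list's signal, and the Tfap2a locus 315, 456 and 407. In replicate 3 the 2 genes were nearly level, and in replicate 1 they were farthest apart. The Tfap2b locus held 132, 127 and 247 ppm and the Tfap2e locus 22.1, 33.3 and 34.6.

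By the strongest single peak the order was another. Tfap2a led with 94.8, 97.8 and 87.9, a mean percentile of 93.5 ± 5.11 (SD, n = 3). Tfap2c had 85.9, 91.8 and 82.9, a mean of 86.9 ± 4.53 (SD, n = 3). Tfap2b had 79.1, 65.3 and 86.4, a mean of 76.9 ± 10.7 (SD, n = 3). The ranges of neighbouring genes overlapped, those of Tfap2a with Tfap2c and of Tfap2c with Tfap2b, whereas Tfap2e, at 22.2 to 28.9, lay below all of them. By maximum signal in place of total signal, Tfap2a fell to a mean of 82.8 and Tfap2c to 80.2. By signal per base the order turned, with 81.7 ± 15.6 for Tfap2a and 85.2 ± 7.06 for Tfap2c (SD, n = 3). The median percentile of the AP-2 peaks was 59.6, 71.1 and 59.8 in replicates 1, 2 and 3.

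**Figure D3:**
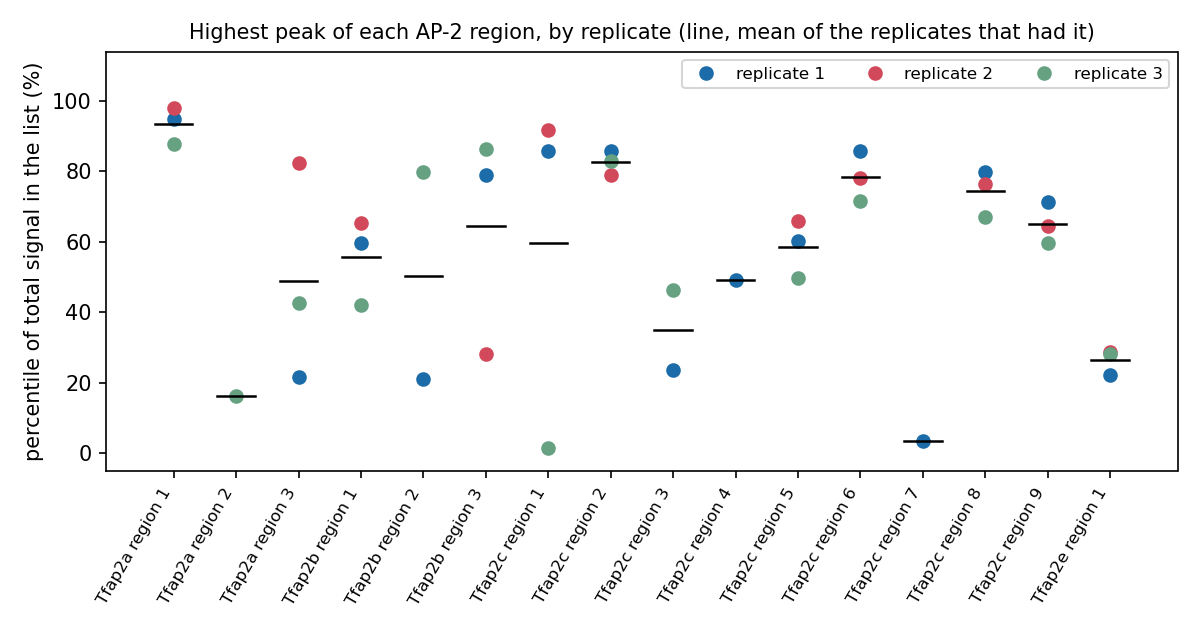
Percentile of total signal of the strongest peak in each of the 16 AP-2 regions, by replicate, with the mean of the replicates that held the region as a line. Tfap2a region 1 and Tfap2c region 2 sat above 78 in every replicate, and Tfap2c region 1 was split between 91.8 and 1.55.

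The signal of replicate 3 relative to replicate 2 fell with the GC content of regions, so the AP-2 regions were set beside regions of like GC content. The share of list signal in replicate 3 was divided by that in replicate 2, as a log2 ratio, and compared with the median over regions within 1 percentage point of GC. Tfap2c region 1, with 54.3% GC, had a log2 ratio of -2.68, below the median of -0.85 over 531 regions of that GC content, of which 0.188%, this region itself, was as low. In called peaks the start of Tfap2c was therefore lower in replicate 3 by more than regions of like GC were. Signal outside called peaks is not counted, however. The replicate 3 peak covered 2.61 kb of Tfap2c region 1, at 1.02 times the lowest total signal of its list. Tfap2a region 3, over its start and with 54.6% GC, had a log2 ratio of -1.30 beside a median of -0.90. In replicate 1 the same region had a log2 ratio to replicate 2 of -1.27 beside a median of -0.25. Of regions of like GC, 0.868%, itself included, were as low. Replicate 2 was thus high there against replicate 1, and less so against replicate 3, where 14.8% of such regions were as low.

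Away from the starts the ratios themselves were smaller. The Tfap2a 3′ domain, with 46.0% GC, had a log2 ratio of replicate 3 to replicate 2 of -0.07 beside a median of 0.24. Tfap2c regions 2, 5, 6, 8 and 9 had log2 ratios between -0.43 and 0.12. Tfap2b region 3 had 0.82 beside a median of 0.46, and Tfap2b region 1 had -0.59 beside 0.01. Against regions of like GC, Tfap2b region 1 stood lower than Tfap2a region 3 did, with 4.98 and 14.8% of such regions as low. What set replicate 3 apart was not tested.

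**Figure D4:**
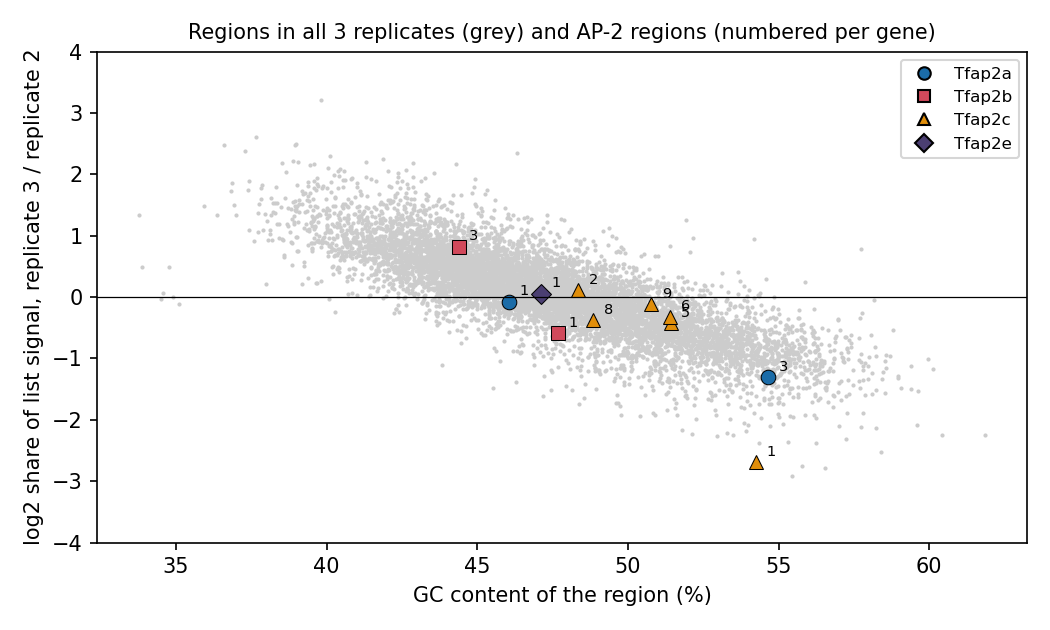
GC content of each region present in all 3 replicates against the log2 ratio of its share of list signal in replicate 3 to that in replicate 2, in grey, with the 11 AP-2 regions in colour and numbered per gene. Ratios fell with GC content, and Tfap2c region 1 lay at -2.68, under the other AP-2 regions.

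Some genes had nearly the same covered bases as an AP-2 gene, measured as the distance in percentile points over 6 values, the body and locus coverage in each replicate. Nearest to Tfap2a were Foxo3, at a distance of 0.462, Gm16867 and Zfp618. Nearest to Tfap2b were Stau2, at 1.31, 4930412O13Rik and Cep112. Nearest to Tfap2c were Oaf, at 1.71, Cstad and Chd7. Foxo3 had 23.2, 32.01 and 23.3 kb under locus peaks, beside the 23.8, 32.5 and 24.3 kb of Tfap2a. Tfap2e was nearest to Zfp825, at 1.35, Jmy and Hmgb2, which also lacked a peak over the body.

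Genes whose products work with or against AP-2 proteins were looked up in a list of 10. Peaks over the body or flanks were present in 3, 4 and 4 of them in replicates 1, 2 and 3, and in all 3 replicates in 3, or 30.0%, beside 15.5% of all genes. The 3 were Kctd1 and Kctd15, whose products bind and inhibit AP-2 proteins, and Wwox, an oxidoreductase that binds them. Kctd1 had percentiles of 90.03, 88.9 and 89.6, level over replicates. Kctd15 had 84.9, 84.6 and 39.1, with replicate 3 lower. Wwox had 96.2, 95.6 and 96.6 for the strongest of its 21, 15 and 14 peaks, in a very long gene. Cited2, a coactivator of AP-2, had a peak in replicates 2 and 3 at 31.0 and 71.3. The coactivator genes Ep300 and Crebbp, the related Cited1 and Cited4, and Yeats4 had none. The median covered length of the list was 0 kb, as over all genes.

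Of 14 genes known as AP-2 targets or as genes regulated beside them, 10, 9 and 6 had a peak in replicates 1, 2 and 3, beside 24.9, 22.6 and 19.6% of all genes. In all 3 replicates 6 had one, or 42.9%, beside 15.5% of all genes, and the median covered length was 2.97 kb, beside 0 kb over all genes. Among them were homeobox genes of the facial midline. Alx4 had percentiles of 99.8, 99.9 and 99.5, and Alx1 66.3, 58.0 and 90.9. Igfbp5, a binding protein of insulin-like growth factors, had 89.0, 93.1 and 95.3, and Egfr, the receptor of epidermal growth factor, 80.1, 64.2 and 84.0.

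Several targets lacked a peak in replicate 3. Krt5, a basal keratin, had 58.7 and 53.7 in replicates 1 and 2 and no peak in replicate 3. Cdh1, or E-cadherin, had 11.1 and 1.52, and Dbh, an enzyme of noradrenaline synthesis, had 34.7 and 6.58, also without a peak in replicate 3. Kit had a peak in replicate 1 alone, at 4.62. Krt14, Erbb2, Esr1 and Hoxa2 had none. In both AP-2 lists together, 9 of 24 genes had a peak in all 3 replicates, beside 15.5% of all genes, and 12 had one in both replicates 1 and 2, beside 21%.

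**Figure D5:**
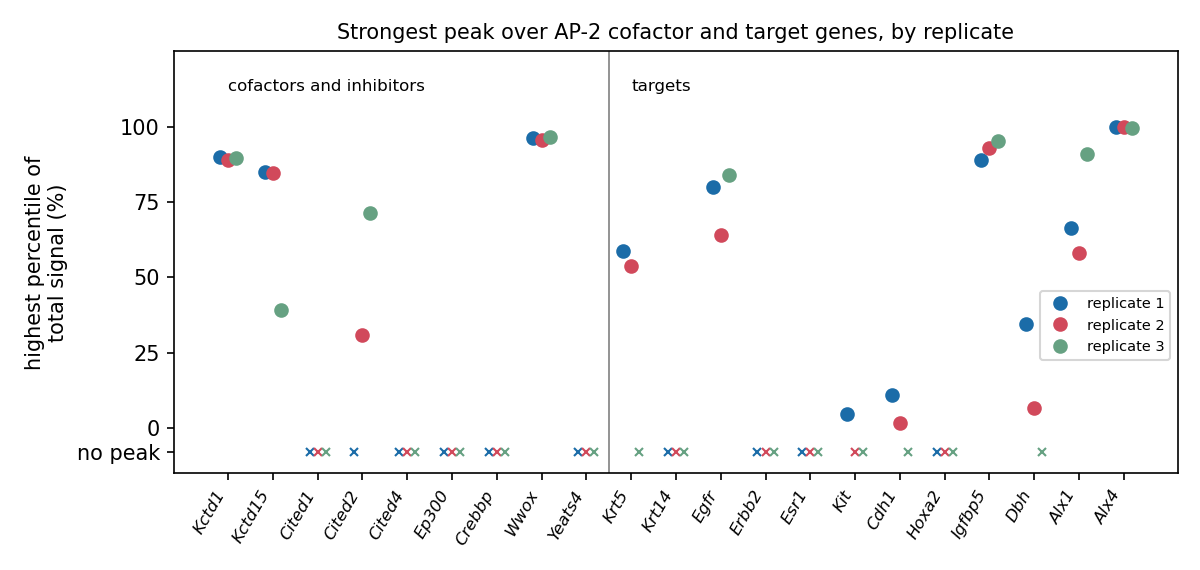
Percentile of total signal of the strongest peak over each AP-2 cofactor or inhibitor (left of the line) and target gene (right), for 21 genes and by replicate, with crosses in the bottom row where no peak was called. Alx4 was above 99 in all replicates, and 7 of the 21 genes shown had a peak in every replicate.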

How the data were processed

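Tagged fragments of wild-type E12 whisker pads were sequenced as paired ends. The submitters' processing notes name Bowtie2 2.3, SAMtools 0.1.19, bedtools and SEACR 1.3, with mm10 as the build. How duplicates were treated is not given in the sources used here. The authors called peaks per replicate in the stringent mode of SEACR without IgG, keeping the top 1% of signal blocks, and deposited for each peak its total and maximum signal, in whole-number pileup units without scaling. A fixed share of blocks fixes the number of peaks, so this number is no measure of enrichment.

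Peaks were assigned with Python 3.11.15 and numpy 2.4.6 to GENCODE vM21 genes with 54132 protein-coding start sites. Peaks overlapping by 1 bp between replicates were merged into regions. Percentiles are ranks of total signal within a list. Steps were tested on simulated data. Bases under locus peaks were compared between genes by an exact permutation test with Benjamini-Hochberg adjustment. Promoters came from the RefSeq table of GRCm38.p6. The members, lists and rules were chosen with earlier results of these data known. Genes named were the members and the AP-2 lists, of which 3 genes are counted but not reported by themselves here, each member's strongest region and those over its 5′ start, its highest peaks, its neighbours and the 3 most alike genes. Other regions, and the single marker genes, were named after their values were seen. Alternatives were a reach of 100 kb, other distances, the stronger 50% of peaks, other overlaps, flanks and signal measures, and leaving out each replicate.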

Additional observations from a re-analysis of the deposited data

How the results depend on the processing

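Taking the stronger 50% of each list lowered the mean number of AP-2 locus peaks from 16.0 to 9.67, the regions in all replicates from 11 to 5 and the mean of the strongest percentile from 93.5 to 87.0, as fewer peaks were kept and percentiles were taken anew. A reach of 100 kb left 7 regions, since it removed the 4 distal Tfap2c regions present in all replicates. By maximum signal the mean of the strongest percentile was 84.6, and by signal per base the strongest peak of Tfap2c stood above that of Tfap2a. Leaving out each replicate moved the mean peaks from 14.5 to 18.0, the regions from 11 to 15, the strongest percentile from 91.3 to 96.3 and the partner genes from 9 to 12. Of 131 alternative values, 105 stayed within 1.5 times of the reported count or within 1 SD of the reported percentile, and 26 moved. Tfap2e lost its peak with the stronger 50% and when distance was taken from the highest pileup. Tfap2d stayed at 0 in every alternative run, but no setting could have added a peak there. Its values count among the 105 that stayed. No paired analysis was possible because only the H3K4me1 and IgG groups share pad numbers and no IgG list was used here; the comparison of genes was made within replicates. Since the lists keep the top 1% of signal blocks and give no read numbers, absence of a peak at Tfap2d does not show absence of H3K4me1.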

Other observations

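The interval of 309 kb between Tfap2c and Bmp7 held 16 regions, 10 of them in all replicates, of which 4 were nearest to Tfap2c and 6 to Bmp7. The first region on the Bmp7 side, chr2:172752365-172759480, began 10.4 kb after Tfap2c region 9. It stood at percentiles 92.8, 92.8 and 88.1, a mean of 91.2 ± 2.72 (SD, n = 3), above each distal Tfap2c region. It lay 203 kb from the Tfap2c start and 181 kb from the Bmp7 start. Nearness to a start site was the only ground for dividing the interval, and no contact was measured.

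Beyond the reach of Tfap2b, the next region, chr1:19564215-19567685, lay 355 kb after its 5′ start and stood at percentiles 3.81, 25.1 and 62.4. It belonged to no gene within 300 kb, and its values overlapped those of the weaker Tfap2b peaks.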
